A study of Arabidopsis thaliana with 4 samples.

Results

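Transcript levels of 36 genes for ERF transcription factors were followed in whole Arabidopsis seedlings labelled as cml39 mutant and as wild type. The 36 were taken by locus identifier from a count table of 32833 genes and fall into 5 classes: 14 group IX activators, 8 ERF repressors (ERF3, ERF4 and ERF7 to ERF12), 5 group VII factors, 6 factors of the group of RAP2.6, ABR1 and RRTF1 (ERF109), and the 3 SHINE factors SHN1 to SHN3. All seedlings were of the Col-0 ecotype and 7 days old, grown in long days, and each group has 2 libraries (wt 1, wt 2, cml39 1 and cml39 2) of poly(A) RNA made with a stranded kit. The wt group carries no mutation in its labels, and the cml39 group is labelled cml39 -/-, for a gene that encodes a calmodulin-like calcium sensor. The kind of allele, the number of lines and the number of seedlings pooled are not given in the sources used here, and nothing in the labels says that the libraries of a group came from separate cultures, and p-values cover only how far these 4 libraries scatter, which may be technical.

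ERF factors carry a single AP2/ERF domain that binds the GCC box, a short promoter element whose core is GCCGCC. In the ethylene pathway the gas is sensed by membrane receptors, the signal passes through CTR1 and EIN2 to the factors EIN3 and EIL1, and these switch on ERF genes such as ERF1B. Group IX factors activate defence and stress genes, the ERF repressors carry an EAR motif that recruits TOPLESS-type corepressors to similar promoters, group VII factors are degraded in an oxygen-dependent way and drive the response to low oxygen, and SHINE factors activate wax and cutin genes. Many group IX genes also respond within minutes to touch, wounding or cold.

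The libraries held 19331639 to 24101882 counts, and 3 counts, the limit set by a count of 0, correspond to 0.113 to 0.164 CPM (counts relative to library size, per the usual CPM unit, scaled between libraries by the trimmed mean of M values). CML39 itself, the gene named in the mutant label, had 0 counts in both wt libraries and 45 and 21 in cml39 1 and cml39 2. That is at least 27.4-fold higher (edgeR, adjusted p = 0.00218). It passed the filter on low counts through the cml39 libraries alone, so it could enter the test only by differing. Reads of this gene were thus found under the mutant label and not under the wild-type label. Counts over a whole gene do not show whether an intact transcript was made. Below, cml39 and wt stand for the libraries carrying those labels. Whether labels were exchanged cannot be settled from these files, and an exchange would turn every direction and ratio below. For the marker lists that follow, 19.3% of all tested genes were higher and 21.6% lower (edgeR, adjusted p under 0.05). Of 20 root marker genes 16 were lower and 0 higher. Their summed level lay between 4228 and 4742 CPM in wt and between 1096 and 1359 CPM in cml39, with only WOX5 at 0 in both cml39 libraries. Of 13 photosynthetic shoot markers 6 were higher and 1 lower, with sums of 63720 to 67140 CPM in wt and 88170 to 95680 CPM in cml39. Of 8 dividing cell markers 7 were lower (109 to 137 CPM in wt, 17.4 to 18.5 CPM in cml39). Seed storage and oleosin markers summed to 1.5 and 2.06 CPM in wt, 21.8 CPM in cml39 1 and 210 CPM in cml39 2. Nearly all of the cml39 1 sum was PAP85, at 0.975 and 1.48 CPM in wt, 20.9 CPM in cml39 1 and 31.1 CPM in cml39 2. Every other gene of that list was at 0.553 CPM or less in cml39 1. The part of all these marker genes in the ERF results was not tested. In whole seedlings fewer cells of a type and less RNA per cell cannot be told apart.

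Of the 36 genes, 31 had a count and 26 had enough counts to be tested. In these, 15 were higher and 2 lower in cml39 (edgeR, adjusted p under 0.05). Of all 19834 tested genes 40.9% were called, with 19.3% higher and 21.6% lower. The 15 were ERF1A (AT4G17500), ERF2 (AT5G47220), ERF5 (AT5G47230), ERF6 (AT4G17490), ERF104 (AT5G61600) and ERF105 (AT5G51190) among the activators, and ERF3 (AT1G50640), ERF4 (AT3G15210) and ERF11 (AT1G28370) among the repressors. They also held RAP2.2 (AT3G14230), RAP2.3 (AT3G16770) and RAP2.12 (AT1G53910) of group VII, and RAP2.6L (AT5G13330), ABR1 (AT5G64750) and AT5G61890 of the RAP2.6 group. The 2 lower genes were ERF15 (AT2G31230) and SHN2 (AT5G11190). The other 9 tested genes did not pass: ORA59 (AT1G06160), TDR1 (AT3G23230), ERF7 (AT3G20310), ERF8 (AT1G53170), ERF9 (AT5G44210), ERF10 (AT1G03800), ERF12 (AT1G28360), HRE1 (AT1G72360) and RAP2.6 (AT1G43160). Among the 15, 11 were at least 2-fold higher, where 6.57% of all tested genes were. In 19 of the 26 both cml39 libraries lay above both wt libraries (36% of all tested genes), and in 5 both lay below (38%). A gene passed the filter on low counts with about 0.478 CPM in 2 libraries; ERF11 and AT5G61890 did so through cml39 alone and ORA59 and SHN2 through wt alone, so that they could enter the test only by differing. The 10 untested genes were ERF13 (AT2G44840), ERF1B (AT3G23240), HRE2 (AT2G47520), RRTF1 (AT4G34410) and ERF115 (AT5G07310), with 12 counts or fewer in a library, and ERF14 (AT1G04370), ESE1 (AT3G23220), AT5G43410, SHN1 (AT1G15360) and SHN3 (AT5G25390), with 0 counts in all 4 libraries.

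**Figure D1:**
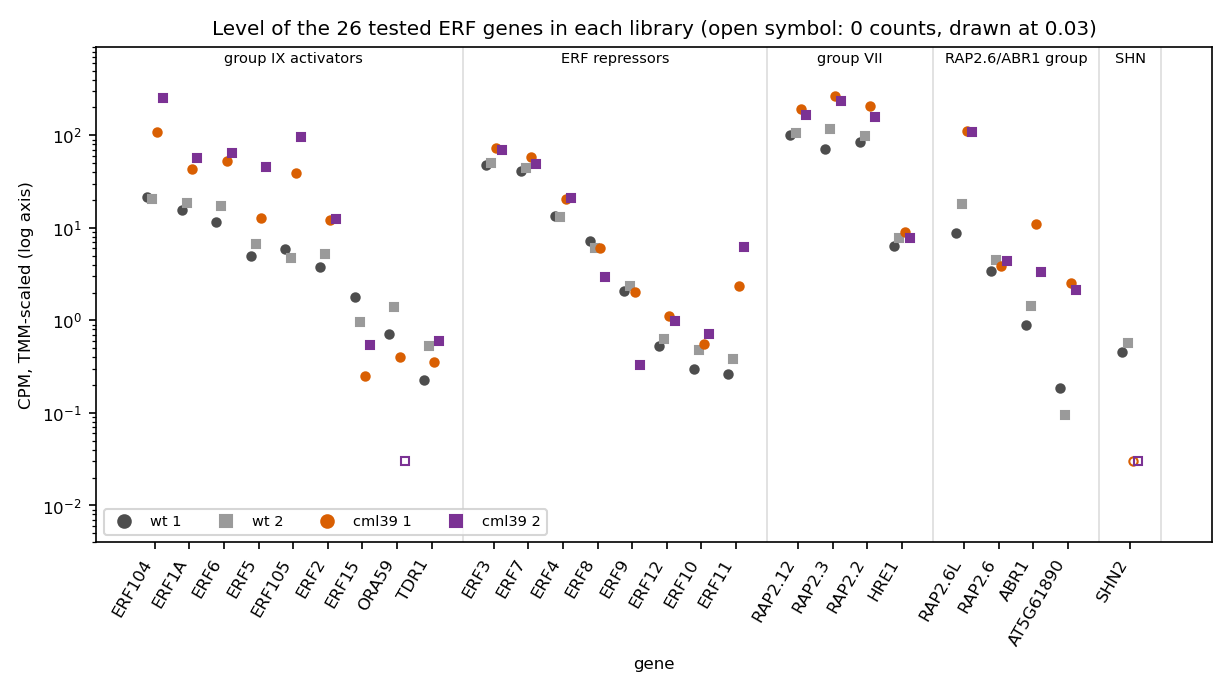
Each point is the level of 1 gene in 1 library, in scaled CPM on a log axis, for the 26 tested genes ordered within each class by their mean in wt; open symbols mark 0 counts. The cml39 points of ERF104, ERF105, ERF11, RAP2.6L and AT5G61890 lie well above the wt points, those of ERF15, ORA59 and SHN2 lie below, and those of RAP2.6 fall among the wt points.

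Levels were compared between genes per kilobase of exon (RPKM, means of 2 libraries). In wt the highest were those of the group VII genes RAP2.3 (72.7 RPKM), RAP2.12 (54.3) and RAP2.2 (50.1), followed by the repressor genes ERF3 (28.1) and ERF7 (19.8) and then by ERF104 (15.02) and ERF1A (14.4). In cml39 the order was RAP2.3 (193 RPKM), ERF104 (131), RAP2.2 (99.4), RAP2.12 (93.8), RAP2.6L (73.0) and ERF105 (69.6). Several neighbours in these orders overlapped between libraries. In wt RAP2.12 (52.6 and 56.0 RPKM) overlapped both RAP2.3 (54.8 and 90.6) and RAP2.2 (46.3 and 54.0), and ERF104 (15.3 and 14.7) overlapped ERF1A (13.1 and 15.8). In cml39 ERF104 was at 79.1 RPKM in cml39 1, below RAP2.3, RAP2.2 and RAP2.12, and at 182 RPKM in cml39 2, level with RAP2.3 at 181. ERF105 was at 40.5 RPKM in cml39 1, just below ERF3 at 42.0, and at 98.7 RPKM in cml39 2, above RAP2.12 and RAP2.2. The place of both genes in the cml39 order therefore depends on the library.

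Of the 9 tested group IX activators 6 stress-responsive genes rose, ERF15 fell, and ORA59 and TDR1 did not pass. ERF104, whose protein is a substrate of the kinase MPK6, was at 21.3 and 20.4 CPM in wt and at 109.9 and 253 CPM in cml39. Both cml39 libraries were far above wt, and cml39 2 was the higher. The log2 difference was 3.12 ± 0.35 (SE, n = 2 per group, adjusted p = 0.00052), 8.68-fold, and 2.40 without cml39 2. ERF105, a close relative linked to cold tolerance, was at 5.96 and 4.74 CPM in wt and at 39.1 and 95.3 CPM in cml39, a log2 difference of 3.64 ± 0.41 (adjusted p = 0.000506; 2.86 without cml39 2). The ordering of the libraries was that of ERF104. ERF105 lies entirely within AT5G51180, a gene on the opposite strand with 777 and 711 counts in wt and 800 and 713 in cml39. The strand setting of the counting is not given in the sources used here, so reads of the 2 genes cannot be told apart with certainty.

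ERF1A and ERF6, and ERF2 and ERF5, stand as neighbours on chromosomes 4 and 5, each pair transcribed in opposite directions away from each other. In TAIR10.1, ERF6 (minus strand, 9752824 to 9754161) and ERF1A (plus strand, 9759203 to 9760391) are separated by 5041 bases with no annotated gene, and ERF2 (minus strand, 19171643 to 19172956) and ERF5 (plus strand, 19179881 to 19181182) by 6924 bases with 2. The arrangement repeats itself, since ERF1A and ERF2 share 77.6% and ERF5 and ERF6 79.6% of their aligned coding bases. All 4 genes have 1 exon, and all 4 rose.

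ERF6, a substrate of MPK3 and MPK6 known to slow leaf growth under osmotic stress, was at 11.5 and 17.1 CPM in wt and at 52.8 and 64.9 CPM in cml39 (log2 difference 2.05 ± 0.20, adjusted p = 0.000296). Its neighbour ERF1A, an activator at GCC boxes, was at 15.6 and 18.8 CPM in wt and at 43.1 and 56.7 CPM in cml39 (1.54 ± 0.17, adjusted p = 0.000449). ERF2, an activator of jasmonate-responsive defence genes, was at 3.75 and 5.26 CPM against 12.1 and 12.4 CPM (1.45 ± 0.22, adjusted p = 0.00176), the tightest pair of cml39 values in the class. ERF5, which acts with ERF6, was the least even of the 4. It was at 4.99 and 6.65 CPM in wt, 12.8 CPM in cml39 1 and 45.2 CPM in cml39 2, a log2 difference of 2.32 ± 0.52 (adjusted p = 0.0102) that was 1.142 without cml39 2 and 2.97 without cml39 1. Its call held in both cases. The longest run of bases that ERF5 and ERF6 share is 29, and that of ERF1A and ERF2 is 23.

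ERF15, the activator called lower, and ORA59, which did not pass, are each other's closest relative among the 36 in coding sequence, with 78.5% of aligned bases shared. ORA59 integrates jasmonate and ethylene signals and activates the defensin gene PDF1.2, and ERF15 is known as a positive regulator of abscisic acid responses. ERF15 had 48 and 20 counts in wt and 5 and 10 in cml39, or 1.8 and 0.957 CPM against 0.252 and 0.547 CPM. The groups did not overlap, and the log2 difference of -1.804 ± 0.59 passed narrowly (adjusted p = 0.0420). It did not pass without wt 1 (-1.26, adjusted p = 0.353), wt 2 (-2.18, adjusted p = 0.0585) or cml39 1 (-1.35, adjusted p = 0.106), and it was -2.45 without cml39 2. DESeq2 (adjusted p = 0.0911), limma-voom (adjusted p = 0.0565) and the fit with the replicate number as a block (-1.76, adjusted p = 0.0857) did not call it. ORA59 had 19 and 29 counts in wt and 8 and 0 in cml39, and its log2 difference of -2.28 ± 0.92 did not pass (edgeR, adjusted p = 0.0832). With every gene that had a count kept, ORA59 passed narrowly (-2.29, edgeR adjusted p = 0.0494). Without cml39 1 it passed (adjusted p = 0.00382), the remaining cml39 library being the one with 0 counts.

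The stretches upstream of these genes that hold a GCC-box core are printed here because the core is the element that factors of this family are known to bind, and because ORA59 and ERF15 hold the core at nearly the same place. All are 70 bases of TAIR10.1, read 5′ to 3′ on the strand of the gene, with GCCGCC, its reverse GGCGGC and the G-box CACGTG in capitals. They are ORA59 at chr1:1882662-1882731 (plus strand), ERF15 at chr2:13307742-13307811 (minus strand), ERF11 at chr1:9956981-9957050 (minus strand) and ABR1 at chr5:25891379-25891448 (plus strand).
ORA59: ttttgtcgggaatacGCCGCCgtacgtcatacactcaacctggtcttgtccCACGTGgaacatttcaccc
ERF15: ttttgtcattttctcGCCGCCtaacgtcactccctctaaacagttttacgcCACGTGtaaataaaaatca
ERF11: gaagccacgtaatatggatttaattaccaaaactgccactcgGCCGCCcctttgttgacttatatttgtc
ABR1: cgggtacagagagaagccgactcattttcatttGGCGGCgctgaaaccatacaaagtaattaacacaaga

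These were the 4 of 36 genes with GCCGCC or its reverse in the 300 bases before the annotated start, where 2.26% of 27437 nuclear protein-coding genes had one. In ORA59 the core begins 230 bases before the start and is followed after 30 bases by CACGTG, and in ERF15 it begins 224 bases before the start and is followed by CACGTG after the same 30 bases. Over the 42 bases from one element to the other, 28 are identical between the 2 genes. That count includes the bases of both elements, which match by the choice of the stretch. Over the 70 printed bases 40 are identical. Both elements together occur in 2 of the 36 windows and in 0.259% of all windows. In ERF11 and ABR1, both of which rose, the core lies close to the start, beginning 28 and 37 bases before it. CACGTG by itself occurred in 10 of the 36 windows (7.09% of all), those of ERF1A, ERF2, ERF4, ERF12, ESE1, TDR1, ORA59, ERF15, RAP2.6 and RRTF1. The W-box forms TTGACC and TTGACT occurred in 4 and 7 of the 36 (14% and 21.9% of all). CGCGTT, 1 form of the element bound by calmodulin-binding CAMTA factors, occurred in that of ERF10 alone (3.08% of all). Other strings with a CGCG core were not counted. Every motif was sought on both strands. A match is a string of letters and no evidence of binding, and elements outside these windows were not searched.

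TDR1 (ERF98), a regulator of ascorbate synthesis, had 6 to 11 counts in each library and a log2 difference of 0.37 ± 0.68 (adjusted p = 0.693). It lies on chromosome 3 between ESE1, with 0 counts throughout, and ERF1B, the factor that EIN3 activates directly, which had 3 and 1 counts in wt and 2 and 12 in cml39 and was not tested. ERF13 had 4 and 3 counts in wt and 7 and 8 in cml39. ERF14 and AT5G43410, a pair sharing 81.8% of aligned coding bases, had none.

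Of the 8 ERF repressors 3 rose, ERF11 by far the most and ERF3 and ERF4 by less than 2-fold. Among all tested genes 19.3% were higher. ERF11, which represses genes of ethylene synthesis, was at 0.263 and 0.383 CPM in wt (7 and 8 counts) and at 2.36 and 6.18 CPM in cml39 (47 and 113 counts). The log2 difference was 3.72 ± 0.60 (adjusted p = 0.00233), 13.2-fold, and 2.88 without cml39 2. ERF11 passed the count filter through cml39 alone, so it could enter the test only by differing. Its tail-to-tail neighbour ERF12, 2668 bases away on chromosome 1 and linked to seed dormancy and floral development, had 14 and 13 counts in wt and 22 and 18 in cml39 (0.87 ± 0.46, adjusted p = 0.171). A difference between these neighbours was not tested.

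ERF4 and ERF3, abundant repressors that share an EAR motif, rose by small and even amounts. ERF4 was at 13.3 and 13.3 CPM in wt and at 20.7 and 21.0 CPM in cml39, a log2 difference of 0.65 ± 0.13 (adjusted p = 0.00673). ERF3 was at 47.6 and 50.1 CPM in wt and at 72.9 and 68.6 CPM in cml39 (0.54 ± 0.10, adjusted p = 0.0055). Both groups were tight, but the calls rest on both wt libraries for ERF4 (adjusted p = 0.0548 without wt 1 and 0.0504 without wt 2) and on wt 1 for ERF3 (adjusted p = 0.0629 without it). ERF7, which acts in abscisic acid responses and shares 81.8% of aligned coding bases with ERF3, was at 41.0 and 44.8 CPM in wt and at 58.8 and 49.5 CPM in cml39 and did not pass (0.34 ± 0.12, adjusted p = 0.0655); it passed without cml39 2 (0.45, adjusted p = 0.0122).

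ERF8, ERF9 and ERF10 did not pass. ERF8, the nearest relative of ERF4, was at 7.24 and 6.12 CPM in wt, 5.99 CPM in cml39 1 and 2.96 CPM in cml39 2 (-0.58 ± 0.33, adjusted p = 0.199). ERF9, a repressor of defence against necrotrophic fungi, was at 2.1 and 2.34 CPM in wt, 2.01 CPM in cml39 1 and 0.328 CPM in cml39 2 (-0.90 ± 0.64, adjusted p = 0.298). In both, cml39 1 was close to wt and cml39 2 was lower, and without cml39 1 both passed (adjusted p = 0.00731 for ERF8 and 0.00275 for ERF9). ERF10 had 8 to 13 counts in each library (0.71 ± 0.57, adjusted p = 0.356).

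**Figure D2:**
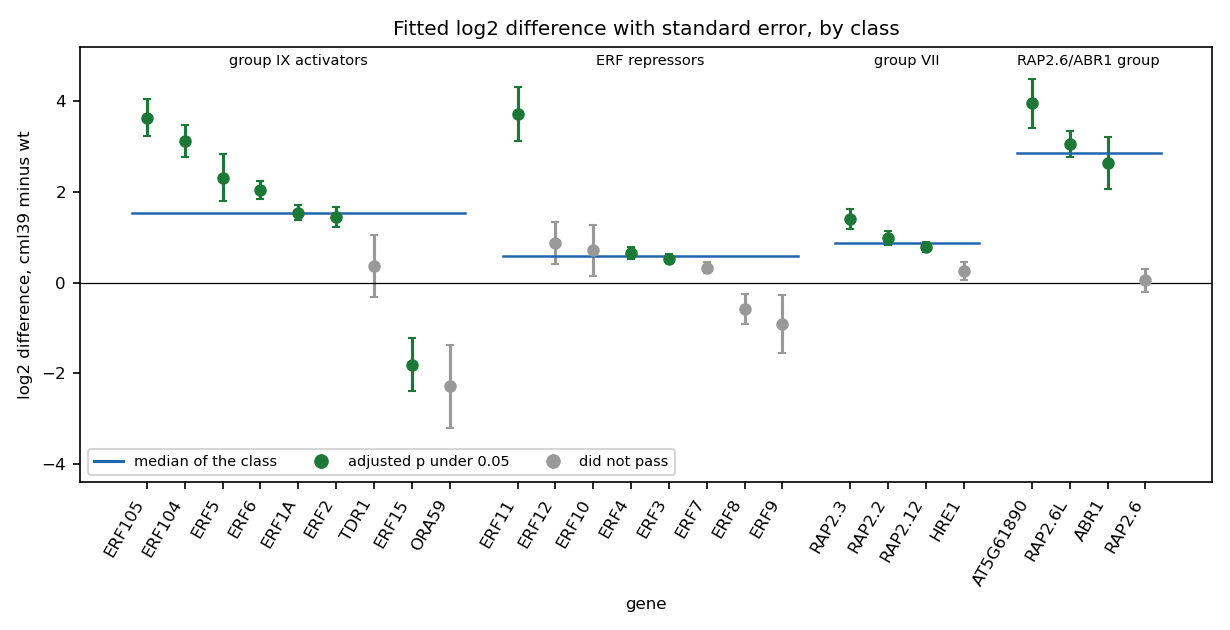
Points are fitted log2 differences (cml39 minus wt) with standard errors for 25 tested genes in 4 classes, green where the adjusted p was under 0.05; blue lines are class medians. SHN2 is left out because it had 0 counts in both cml39 libraries. The 6 activators that rose lie between 1.45 and 3.64, whereas 7 of the 8 repressors lie between -0.90 and 0.87 and only ERF11 is above.

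Set against each other, activators stood higher relative to repressors in the cml39 libraries. Of 9 tested activators 6 rose and 1 fell, and of 8 tested repressors 3 rose and 0 fell. Among all tested genes 19.3% were higher and 21.6% lower. The median log2 difference was 1.54 for activators and 0.59 for repressors, beside -0.0052 for all tested genes, so that the medians differed by 0.95. That difference of medians was 1.61 when only genes with at least 1 CPM in 2 libraries were kept, a filter that leaves out ORA59, TDR1, ERF10 and ERF12. Summed per exon length over all members, tested or not, activators reached 52.7 and 60.2 RPKM in wt and 216 and 423 RPKM in cml39, a ratio of 5.66 between group means (3.82 without cml39 2). Repressors reached 68.5 and 71.0 RPKM in wt and 98.7 and 90.6 RPKM in cml39, a ratio of 1.36. Activator transcript was therefore 0.768 and 0.849 times repressor transcript in the wt libraries and 2.19 and 4.67 times in the cml39 libraries. In cml39 1 and cml39 2, 90.3% and 88.7% of the activator CPM came from ERF1A, ERF6, ERF104 and ERF105, and 92.7% and 92.6% of the repressor CPM came from ERF3, ERF4 and ERF7. With 2 libraries in each group an exact permutation test of a sum cannot pass, and none is given.

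**Figure D3:**
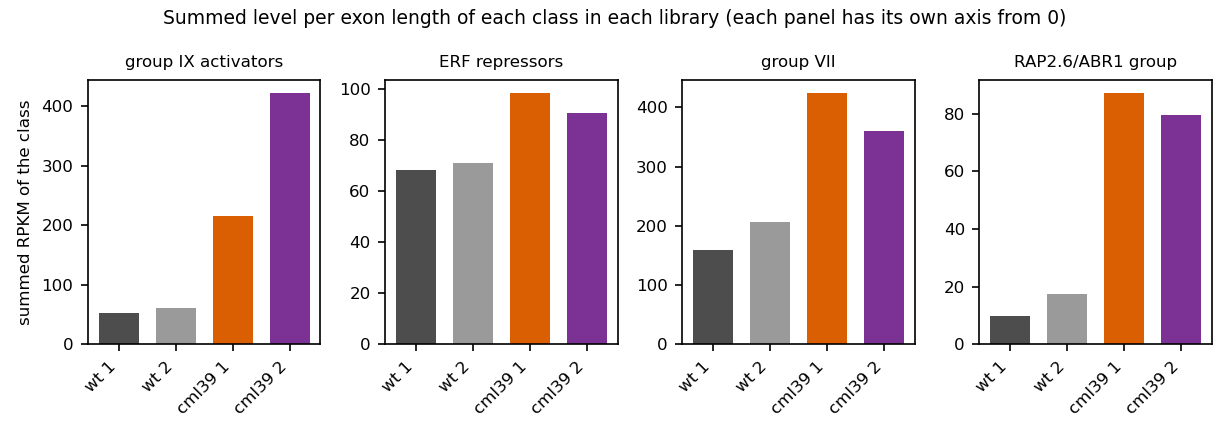
Bars are the summed RPKM of all members of a class in each library, each panel on its own axis from 0. Activators and the RAP2.6/ABR1 group are several-fold higher in both cml39 libraries, group VII is 2.15-fold higher between means, and repressors go from 68.5 and 71.0 RPKM to 98.7 and 90.6 RPKM; the tallest activator bar is that of cml39 2.

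Group VII factors sense oxygen through the stability of their proteins, and their 3 constitutive genes rose together. RAP2.3 was at 71.6 and 118 CPM in wt and at 268 and 236 CPM in cml39 (1.41 ± 0.22, adjusted p = 0.00198). RAP2.2 was at 84.8 and 98.9 CPM in wt and at 206 and 159 CPM in cml39 (0.99 ± 0.15, adjusted p = 0.00178). RAP2.12, which resides at the plasma membrane until oxygen falls, was at 100.3 and 107 CPM against 192 and 166 CPM (0.79 ± 0.11, adjusted p = 0.00147). In all 3 the cml39 values lay above the wt values and cml39 1 was the higher of its group, the reverse of ERF104 and ERF105. RAP2.2 and RAP2.12 share 78.1% of aligned coding bases, with a longest shared run of 23.

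HRE1 and HRE2, the members that low oxygen induces, did not pass or were not tested. HRE1 was at 6.30 and 7.70 CPM in wt and at 9.06 and 7.72 CPM in cml39 (0.26 ± 0.20, adjusted p = 0.335), and it overlaps the opposite-strand gene AT1G72370 by 124 bases, a partner with 3435 to 7029 counts. HRE2 had 1 count in wt 1, 1 in cml39 2 and 0 in the others. For this list and the next, the shares of all tested genes were 19.3% higher and 21.6% lower. Of 10 hypoxia response genes 6 rose and 2 fell, with a median of 0.81. PDC2, a pyruvate decarboxylase (1.29 ± 0.11), AlaAT1, an alanine aminotransferase (1.301 ± 0.14), and ADH1, the alcohol dehydrogenase (1.62 ± 0.25), rose. PDC1 (AT4G33070, -2.21 ± 0.37) and SUS4 (-1.995 ± 0.46), named after their values were seen, fell. SUS4, with 8 and 7 counts in cml39, passed the count filter through wt alone and could enter the test only by differing. Root markers were lower in the same libraries (16 of 20), and their part in the values of these 10 genes was not tested. Of 10 genes of oxygen-dependent turnover 3 rose and 0 fell (median 0.038): the cysteine oxidase gene PCO5 (AT3G58670; 0.64 ± 0.13), the arginyl transferase gene ATE1 (0.42 ± 0.12) and PRT6, the ubiquitin ligase of this pathway (0.36 ± 0.10).

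In the RAP2.6 group 3 genes rose strongly and RAP2.6 did not. RAP2.6L, known for a role in shoot regeneration, was at 8.70 and 17.9 CPM in wt and at 112 and 107 CPM in cml39. The cml39 values were close to each other and the 2 wt values differed. The log2 difference was 3.06 ± 0.29 (adjusted p = 0.000254), 8.33-fold, and 3.65 without wt 2. AT5G61890, annotated as a member of the same B-4 subfamily, had 5 and 2 counts in wt and 51 and 39 in cml39 (3.96 ± 0.53, adjusted p = 0.00109). It passed the count filter through cml39 alone and could enter the test only by differing. ABR1, a repressor of abscisic acid responses whose promoter is printed above, was at 0.90 and 1.44 CPM in wt, 11.1 CPM in cml39 1 and 3.34 CPM in cml39 2. It rose by 2.65 ± 0.57 on the log2 scale (adjusted p = 0.00874), and the value was 1.53 without cml39 1 and 3.26 without cml39 2. ABR1 overlaps AT5G64760 on the other strand by 109 bases; that gene had 422 and 283 counts in wt and 221 and 185 in cml39.

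RAP2.6, a stress-responsive gene in roots and leaves, was at 3.45 and 4.54 CPM in wt and at 3.82 and 4.43 CPM in cml39, so the groups overlapped (0.051 ± 0.26, adjusted p = 0.896). ERF115, which is induced next to dead root cells and shares 79.7% of aligned coding bases with AT5G61890, had at most 4 counts in a library. RRTF1 (ERF109), a redox-responsive factor, had 0 and 2 counts in wt and 0 and 4 in cml39. Of 6 partners and targets of this group in wounding and regeneration, SCL5, a GRAS-family gene, rose (0.39 ± 0.11) and YUC2, an auxin synthesis gene, fell (-1.34 ± 0.43). The other 4 did not pass, where 40.9% of all tested genes were called.

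SHINE genes were barely read. SHN1 and SHN3 had 0 counts in all 4 libraries, which allows at most 0.113 to 0.164 CPM. SHN2 had 12 and 12 counts in wt (0.45 and 0.574 CPM) and 0 and 0 in cml39. It passed the count filter through wt alone and could enter the test only by differing. With 3 counts over the cml39 group as the floor it was at least 6.42-fold lower (adjusted p = 0.0128), and at least 3.07-fold and 3.34-fold lower with cml39 1 or cml39 2 left out. The call was lost without wt 1 (adjusted p = 0.0647) and without wt 2 (adjusted p = 0.065). Floors cover counting error only. Of 13 tested wax and cutin genes 10 fell and 0 rose, with a median of -0.91, where 21.6% of all tested genes were lower. CER1, needed for wax alkanes, was at 16.9 and 12.2 CPM in wt and at 0.604 and 0.876 CPM in cml39 (-4.30 ± 0.30, adjusted p = 9.33e-05). PEL3 (-2.19 ± 0.20), an acyltransferase gene of the cuticle, and MYB106 (-3.31 ± 0.55), a MYB factor that acts with SHN1, fell as well. MYB106, with 5 and 2 counts in cml39, passed the count filter through wt alone and could enter the test only by differing.

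The genes before and after the ERFs in the ethylene pathway were taken from lists of pathway members. Of 12 receptor and signalling genes 4 rose and 1 fell, with a median of 0.19. Called genes made up 40.9% of all tested genes, with 19.3% higher and 21.6% lower. The receptor gene ETR1 (0.63 ± 0.12), EIN3 (0.55 ± 0.12) and the receptor gene ETR2 (1.02 ± 0.26) rose, and EIN2 (-0.29 ± 0.10, adjusted p = 0.0498), named after its value was seen, fell narrowly. Of 11 tested genes of ethylene synthesis 7 rose and 3 fell, with a median of 0.98. ACS7 was at 3.23 and 3.06 CPM in wt and at 28.9 and 37.4 CPM in cml39 (3.39 ± 0.19), and ACS11 at 5.51 and 6.60 CPM against 49.5 and 39.7 CPM (2.89 ± 0.17). ACS4 (-3.95 ± 0.50), ACO1 (-3.87 ± 0.67) and ACS5 (-4.56 ± 0.99), named after their values were seen, fell. In the cml39 libraries ACS4 had 3 and 3 counts, ACO1 had 2 and 1, and ACS5 had 0 and 1. Each passed the count filter through wt alone and could enter the test only by differing.

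Of 8 kinases and calmodulin-binding regulators upstream of the activators 5 rose and 0 fell, with a median of 0.60. The shares of all tested genes were 19.3% higher and 21.6% lower. MKK9 (1.72 ± 0.25), MKK5 (0.82 ± 0.16) and MPK3 (0.70 ± 0.14), kinases of the cascade that phosphorylates ERF6, had the lowest p-values. Of 4 genes that ERF5 and ERF6 are reported to regulate 3 rose. STZ, a zinc finger repressor, was at 4.99 and 8.23 CPM in wt and at 48.1 and 164 CPM in cml39 (4.02 ± 0.56). MYB51 (1.62 ± 0.16), of indolic glucosinolate synthesis, and WRKY33 (1.60 ± 0.24), of defence, rose, and GA2OX6 did not pass (0.39 ± 0.36, adjusted p = 0.412). Of 9 corepressors that EAR motifs recruit 0 rose and 1, TPR3 (-0.52 ± 0.12, adjusted p = 0.0117), fell.

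Defence genes with a GCC box, the classical targets of ERF1B and ORA59, were mixed or barely read. Of 7, 3 were tested. The basic chitinase gene HCHIB fell from 26.1 and 24.0 CPM to 8.70 and 8.65 CPM (-1.53 ± 0.14, adjusted p = 0.000241), the osmotin gene OSM34 rose from 59.6 and 107 CPM to 189 and 138 CPM (0.97 ± 0.26, adjusted p = 0.0215), and PR4 did not pass (-0.15 ± 0.18, adjusted p = 0.538). The defensin genes PDF1.2 and PDF1.2b had 2 or fewer counts in a library, and PDF1.2c and PDF1.3 had none.

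Several ERF genes also differed between the 2 cml39 libraries. Of 24 tested members with over 3 counts in both, 8 differed by more than 2-fold, where 4.99% of 19010 genes did, and between the wt libraries it was 2 of 25 such members and 2.32% of 19740 genes. ERF5 (3.54-fold), ERF11 (2.62-fold), ERF105 (2.44-fold), ERF104 (2.298-fold) and ERF15 (2.18-fold) were higher in cml39 2, and ERF9 (6.13-fold), ABR1 (3.32-fold) and ERF8 (2.03-fold) in cml39 1. Seed storage and oleosin markers were also far higher in cml39 2 than in cml39 1, and their part in these differences was not tested.

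**Figure D4:**
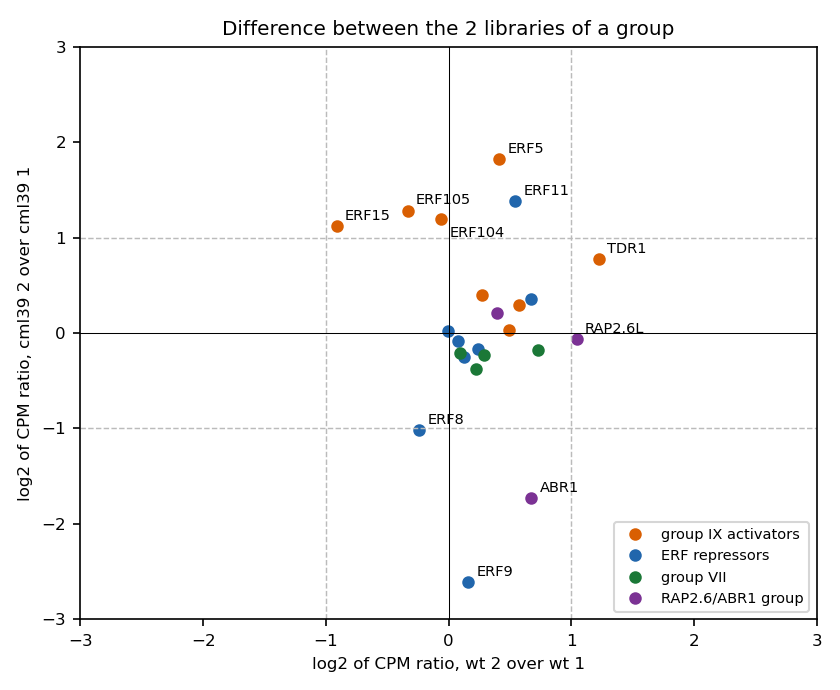
Each point is 1 of 23 members, placed by the log2 CPM ratio of wt 2 over wt 1 on the horizontal axis and of cml39 2 over cml39 1 on the vertical axis. ERF5, ERF11, ERF104 and ERF105 lie high, and ERF9 and ABR1 lie low.

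In the authors' deposited table, whose fit was not limited to these 4 libraries, 27 of the 36 genes had an adjusted p, and 9 were called higher and 0 lower, against 7.23% of all its genes called higher and 8.76% called lower. The 9 were ERF1A, ERF5, ERF6, ERF104, ERF105, ERF11, RAP2.6L, ABR1 and AT5G61890, all of them among the 15 above. The authors' deposited table gave a log2 fold change of 2.77 ± 0.39 for ERF104 (adjusted p = 1.88e-10), 3.03 ± 0.45 for ERF105 (adjusted p = 2.15e-09) and 2.58 ± 0.54 for ERF11 (adjusted p = 7.83e-05). It gave 1.17 ± 0.47 for RAP2.3 (adjusted p = 0.068), 0.88 ± 0.40 for RAP2.2 (adjusted p = 0.113) and 0.74 ± 0.32 for RAP2.12 (adjusted p = 0.103), so no group VII gene was called in the authors' deposited table. ERF15 (-0.85, adjusted p = 0.379) and SHN2 (-1.42, adjusted p = 0.0873) were not called there either. That table comes from another estimator and in part from the same libraries, and is no independent support.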

How the data were processed

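RNA was measured by stranded mRNA sequencing in 4 libraries. The deposited gene counts are raw read counts, checked as whole numbers; per the submitters' processing notes CASAVA 1.8, FastQC, STAR 2.5.2b, DESeq2 1.14.1 and the TAIR10 build were used, with no role stated. In the authors' deposited table the signal values are means of normalized counts over libraries, the fold change and its SE are on the log2 scale, the score is the Wald statistic, and p-values and adjusted p-values are the authors'.

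Counts were filtered with filterByExpr, scaled by TMM and compared with edgeR 4.0.16 (quasi-likelihood F test, two-sided, R 4.3.3), with Benjamini-Hochberg adjustment over 19834 tested genes and a threshold of 0.05. SEs are the absolute log2 difference over the square root of F, and SE is meant wherever ± follows a log2 difference. CPM were divided by exon length in kilobases for RPKM. Symbols, positions and sequences are those of the RefSeq reference TAIR10.1, which matched 32548 of 32833 identifiers. All 36 members were named, and of each other list up to 3 genes past the threshold with the lowest p, except 1 gene that is not reported here. Limma 3.58.1 and DESeq2 1.42.0 served as alternatives. The fit was also run on simulated data, in which far fewer genes changed than were called here. That run does not show how the fit performs on these data. The members, lists and motifs were chosen with earlier results of these data known.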

Additional observations from a re-analysis of the deposited data

How the results depend on the processing

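The 15 members called higher stayed 15 under the other scalings, filters and tests and the replicate block and numbered 13 to 16 with 1 library left out, and no member's log2 difference changed sign where it passed. The 2 members called lower were 1 with a filter of 1 CPM in 2 libraries (where SHN2 could not be tested), 1 with DESeq2, 1 with limma-voom and 1 with the replicate block, and 0 to 4 with 1 library left out. Every alternative called 6 activators higher. Activators minus repressors in median log2 difference (0.95) was 1.61 with the 1 CPM filter and 0.78 to 1.15 with 1 library left out. Keeping every gene with a count called 3 members lower, ORA59 being added to the 2 (edgeR, adjusted p = 0.0494). Upper quartile scaling shifted the median of all genes by -0.148. Of 307 values of single members under the alternatives, 290 kept their side of the threshold, 11 lost and 6 gained a call; the causes were not tested. The deviations of same-numbered libraries from their group means correlated at -0.151. With 2 libraries in each group this cannot show whether the replicate number marks a shared batch. The replicate block gave 15 higher and 1 lower, and a crossed pairing, chosen after seeing the data, 16 and 2. Depth limits SHN2, ORA59, ERF15, TDR1, ERF10, ERF12 and the 10 untested members, which had fewer than 50 counts in any library. It also limits the size of the rises of ERF11 (7 and 8 counts in wt) and AT5G61890 (5 and 2 counts in wt).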
